A study of Homo sapiens with 8 samples.

Results

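Metallothioneins and the zinc exporter SLC30A1 were examined in mRNA-seq of HCT116, a human colorectal cancer cell line. The genes were found by symbol, as the rows named MT1E, MT1F, MT1G, MT1M, MT1X, MT2A and SLC30A1 in each of 2 tables of read counts, one for each experiment. All 7 genes were listed in both tables, among 23393 genes in the table of the UBA2 shRNA experiment and 42125 in that of the TFAP2C siRNA experiment. All 8 libraries came from HCT116 cells that stably carry a Tet-On shRNA against UBA2, which the labels name shSAE2, grown in DMEM with Tet System Approved FBS. In the first experiment, 2 libraries came from cells given DMSO for 5 days (no Dox) and 2 from cells given 1 μg/mL of doxycycline (Dox) for 5 days, which the labels call SAE2 kd. In the second, 2 libraries came from cells with control siRNA and 2 from cells with TFAP2C siRNA, each for 48 hrs. The stable line is given as 1 line without a count of clones, and the labels do not say whether replicates came from separate cultures, so the p-values measure the spread between these libraries only.

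Metallothioneins are small, cysteine-rich proteins that bind zinc and copper, and cadmium when cells are exposed to it. Their genes are induced by the zinc-sensing transcription factor MTF1, which binds metal response elements (MREs) near their starts, and several also respond to glucocorticoids and to oxidative stress. SLC30A1, also called ZnT1, moves zinc out of the cell across the plasma membrane and is a further target of MTF1. AP-2 factors, the family of TFAP2C, have long been known to bind the MT2A promoter. Doxycycline belongs to the tetracyclines, which bind divalent metal ions. UBA2 is a subunit of the enzyme that starts SUMOylation, which attaches small ubiquitin-like proteins to other proteins, many of them in the nucleus.

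The sequences upstream of the genes are shown because MTF1 and AP-2 sites lie there. RefSeq entries (GRCh38.p14) were at hand for 3 of the 7 genes, MT2A, MT1X and SLC30A1, and each shows the 250 bases before the gene start, 5′ to 3′ on the strand of the gene, with matches to the MRE core in capitals. The core was searched as TGCACNC and TGCGCNC on both strands.
MT2A, chr16:56608334-56608583, plus strand: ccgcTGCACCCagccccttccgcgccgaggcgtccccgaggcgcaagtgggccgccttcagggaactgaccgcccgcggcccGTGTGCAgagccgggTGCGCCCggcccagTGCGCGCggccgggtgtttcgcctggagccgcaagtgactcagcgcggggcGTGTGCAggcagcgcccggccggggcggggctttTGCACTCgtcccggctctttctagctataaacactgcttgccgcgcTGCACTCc
MT1X, chr16:56682220-56682469, plus strand: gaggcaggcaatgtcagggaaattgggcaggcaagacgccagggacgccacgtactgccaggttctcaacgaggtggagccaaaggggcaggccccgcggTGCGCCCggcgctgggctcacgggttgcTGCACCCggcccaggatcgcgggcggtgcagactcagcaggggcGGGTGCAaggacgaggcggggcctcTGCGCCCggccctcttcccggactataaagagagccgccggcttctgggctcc
SLC30A1, chr1:211579162-211579411, minus strand: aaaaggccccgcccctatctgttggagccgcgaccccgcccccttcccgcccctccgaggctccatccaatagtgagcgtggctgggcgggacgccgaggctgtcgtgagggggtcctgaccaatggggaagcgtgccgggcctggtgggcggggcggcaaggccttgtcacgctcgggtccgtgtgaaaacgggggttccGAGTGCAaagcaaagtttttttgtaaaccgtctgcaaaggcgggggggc

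MT2A held 7 MRE core matches in this window, MT1X held 4 and SLC30A1 held 1. At least 1 match was found in 24.8% of all 35116 promoter windows of this length, and 7 or more were found in 0.0313%. The AP-2 motif, searched as GCCNNNGGC, matched once in MT2A, at positions -179 to -171 from the gene start, and once in MT1X, at -20 to -12. SLC30A1 held no match to these letters in the window. The motif was present in 19.8% of all windows. The letters TATAAA began at -29 in MT2A and at -30 in MT1X, and they were present in 10.7% of windows. Both strands were searched for each motif. No 2 of the matches overlapped. A match describes the letters and does not show that a factor was bound.

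**Figure D1:**
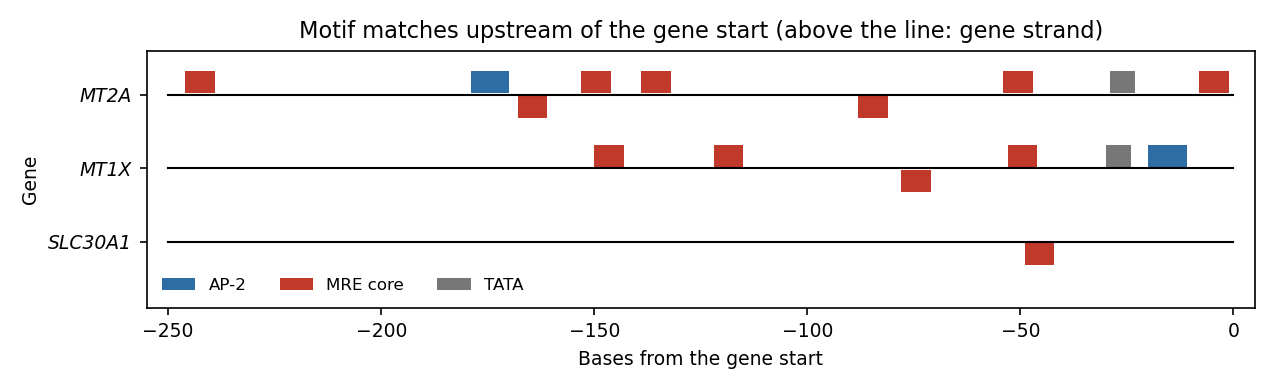
Motif matches in the 250 bases upstream of the gene start, with distance from the start in bases on the x axis and 1 line for each gene. Bars above a line lie on the strand of the gene and bars below it on the other strand. The AP-2 motif reads the same on both strands, so its bars are drawn above the line and have no direction. The 7 MRE core matches of MT2A, the 4 of MT1X and the 1 of SLC30A1 are in red.

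The 6 metallothionein genes lie on chromosome 16 within 75.6 kb, from 56642478 to 56718108 on hg19, and SLC30A1 lies on chromosome 1, from 211748381 to 211752099. Because the metallothioneins are close copies of each other, reads can be shared between them. Of the distinct 51-base windows in GENCODE transcripts of MT2A, 4.07% also occurred in a transcript of another gene. This share was 6.73% for MT1E, 18.6% for MT1X, 1.14% for MT1F, 16.96% for MT1M, 16.1% for MT1G and 0% for SLC30A1. In the table of the UBA2 experiment, the row of MT1A starts at the same base as that of MT2A, and the row of MT1M spans that of MT1E, so reads there could fall in more than 1 gene. Values of single metallothioneins are therefore uncertain in level. Each change between groups was taken within a table. The test of the difference between the experiments sets changes from both tables against each other, so this uncertainty applies there as well.

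Total counts lay between 18213739 and 24465109 per library. TFAP2C mRNA was 19.7 ± 1.13 CPM with control siRNA and 3.88 ± 0.591 CPM with TFAP2C siRNA (SD, n = 2 each). UBA2 mRNA was 154 ± 10.8 CPM without Dox and 150.02 ± 4.39 CPM with Dox (SD, n = 2 each, adjusted p = 0.766, edgeR). A fall of UBA2 was not detected, so the Dox libraries are called the libraries labelled UBA2 KD. No library of cells without the shRNA but with Dox was analysed here, so Dox itself and the shRNA cannot be told apart. Of the epithelial markers, KRT8, KRT18, KRT19, EPCAM, CDH1 and CDX2 were expressed in both experiments, while CDX1 and VIL1 had at most 3 counts in any library. The summed epithelial markers lay between 2151 and 2169 CPM without Dox and between 2407 and 2500 CPM with Dox, and EPCAM, KRT8 and KRT18 rose among the 6 tested in edgeR, where 5.52% of all genes rose, against 2 of 6 in DESeq2. They summed to between 2804 and 2913 CPM with control siRNA and between 3134 and 3404 CPM with TFAP2C siRNA, where 0 of 6 passed in edgeR or DESeq2 and 2 had an unadjusted p under 0.05. The part of this in the results below was not tested. The 5 leukocyte markers summed to at most 1.53 CPM in every library, the 4 endothelial markers to at most 2.67 CPM, and the 5 mesenchymal markers to at most 48.3 CPM, nearly all of it COL1A1, with COL1A2 at 0 in all 8 libraries. Bulk RNA cannot tell apart a change in every cell and a change in the share of cells that express a gene. The 2 TFAP2C siRNA libraries differed from each other more than other replicates, with a chi-square per gene of 9.09 against 2.55 to 2.76 in the other groups.

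In the UBA2 experiment the question was how loss of SUMOylation changes expression. MT2A, MT1E and MT1X rose in the libraries labelled UBA2 KD, by 43.1%, 26.5% and 30.5%. SLC30A1 was 17.5% higher but did not pass the threshold, and MT1F was 10.7% lower and did not pass. MT1M and MT1G had too few counts to pass the expression filter of edgeR. Of the 7 genes, 5 were thus tested, 3 rose and 0 fell at an adjusted p under 0.05. Over all 13381 genes tested, 5.52% rose, 4.47% fell and 9.98% changed in either direction. With 2 libraries a group an exact permutation test cannot go below 0.333, so each p comes from edgeR's quasi-likelihood test fitted across all genes.

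MT2A, the most abundant human metallothionein in many tissues, had 152 and 158 CPM in the libraries without Dox and 236 and 207 CPM in those with Dox. Both libraries with Dox were above both without, as for 25.5% of all genes tested. The Dox replicates differed from each other by more than the replicates without Dox did. The log2 fold change was 0.52 (standard error 0.056, 95% confidence interval 0.40 to 0.63, adjusted p = 3.05e-08, edgeR).

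MT1E had 153.5 and 161 CPM without Dox and 201 and 198 CPM with Dox. The groups did not overlap, which held for 51.3% of all genes tested, and the gap between them was larger than the difference between replicates of either group. The log2 fold change of MT1E was 0.34 (standard error 0.052, 95% confidence interval 0.23 to 0.44, adjusted p = 1.52e-05, edgeR).

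MT1X had 12.4 and 14.7 CPM without Dox and 16.8 and 18.6 CPM with Dox. Its groups did not overlap either, but the higher library without Dox and the lower one with Dox were about as close as replicates of a group. The log2 fold change was 0.38 (standard error 0.11, 95% confidence interval 0.17 to 0.60, adjusted p = 0.0161, edgeR). This call was lost without replicate 1 of the libraries without Dox (adjusted p = 0.189) and without replicate 2 of those with Dox (adjusted p = 0.117). It was also lost in the Wald test of DESeq2 (adjusted p = 0.157) and with all 8 libraries in the same fit (adjusted p = 0.0694, edgeR).

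SLC30A1 had 17.6 and 16.1 CPM without Dox and 19.5 and 20.03 CPM with Dox. Both libraries with Dox were above both without, as for 25.5% of all genes tested. The log2 fold change of SLC30A1 was 0.23 (standard error 0.096, 95% confidence interval 0.038 to 0.43), and it did not pass (adjusted p = 0.132, edgeR). The unadjusted value of 0.0210 was under 0.05, as it was for 22.7% of all genes tested.

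MT1F had 2.30 and 2.35 CPM without Dox and 2.17 and 1.99 CPM with Dox. The libraries with Dox were slightly below those without, in the opposite direction to the other 4 tested genes. These levels came from 37 to 49 counts a library, and the log2 fold change of -0.16 had a confidence interval from -0.64 to 0.31 (standard error 0.23, adjusted p = 0.747, edgeR). This interval includes both falls and rises. The changes of MT2A, MT1E and MT1X lie above it, but the intervals of MT1E and MT1X overlap it. Differences between the genes were not tested.

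MT1M had 3 and 5 counts without Dox and 6 and 8 counts with Dox. Its ratio over the summed counts was 1.89, with an exact Poisson interval of 0.740 to 5.20 that covers counting error only. MT1G had at most 2 counts in any library of either experiment, below the limit of 3 counts that a count of 0 allows. Without a filter on low counts, MT1M did not pass in the UBA2 comparison (adjusted p = 0.618, edgeR).

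**Figure D2:**
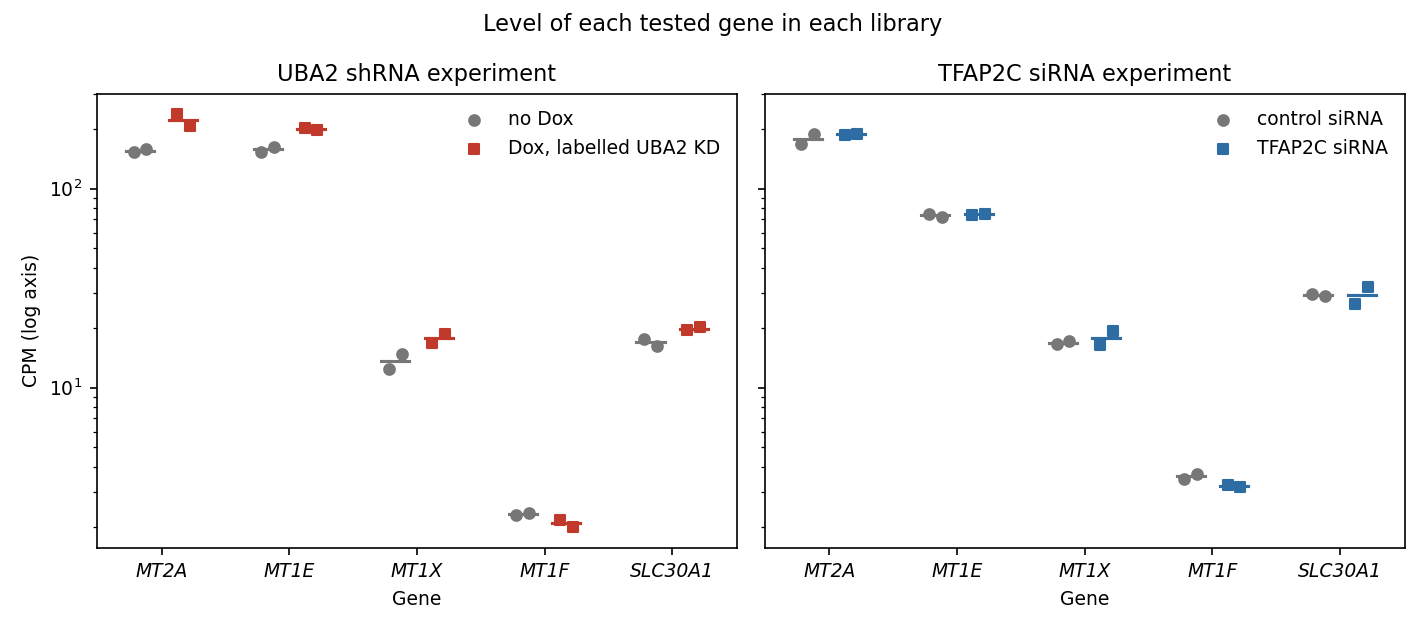
Level in CPM on a log axis of the 5 tested genes in each of the 8 libraries, with the libraries without Dox and with control siRNA as grey circles, those labelled UBA2 KD as red squares and those with TFAP2C siRNA as blue squares. Horizontal bars are group means. The red squares of MT2A, MT1E, MT1X and SLC30A1 lie above the grey circles, as for 25.5% of all genes tested. Those of MT1F lie below its grey circles. The blue squares overlap their grey circles except for MT1F, where they lie below.

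Counted together, all metallothionein rows of the table summed to 321 and 337 CPM without Dox and to 457 and 426 CPM with Dox. The sum holds 16 rows, and MT2A and MT1E supplied most of it. MT2A took 47.4% (95% exact binomial interval 46.1% to 48.6%) and 46.8% (45.7% to 48.0%) of the metallothionein counts without Dox. With Dox it took 51.8% (50.7% to 52.9%) and 48.6% (47.5% to 49.7%). These intervals cover counting error only, and those of the Dox replicates did not overlap each other, so the libraries varied by more than they show. The share of MT1E was 47.8% and 47.9% without Dox and 43.9% and 46.4% with Dox. MT2A thus had 0.990 and 0.978 counts for each count of MT1E without Dox and 1.18 and 1.05 counts with it. The share of MT1X lay between 3.68% and 4.36% in all 4 libraries, and its groups overlapped. The other 10 metallothionein genes and pseudogenes of the table had at most 11 counts in any library, and none passed the expression filter.

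Under other settings MT2A and MT1E kept their direction and their call. Leaving out each library in turn gave log2 fold changes from 0.42 to 0.61 for MT2A and from 0.30 to 0.38 for MT1E, and the lowest value for MT2A was without replicate 1 of the libraries with Dox. SLC30A1 stayed above 0 under all 11 alternatives and passed in none of them, with adjusted p-values from 0.117 to 0.526 (edgeR and DESeq2).

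**Figure D3:**
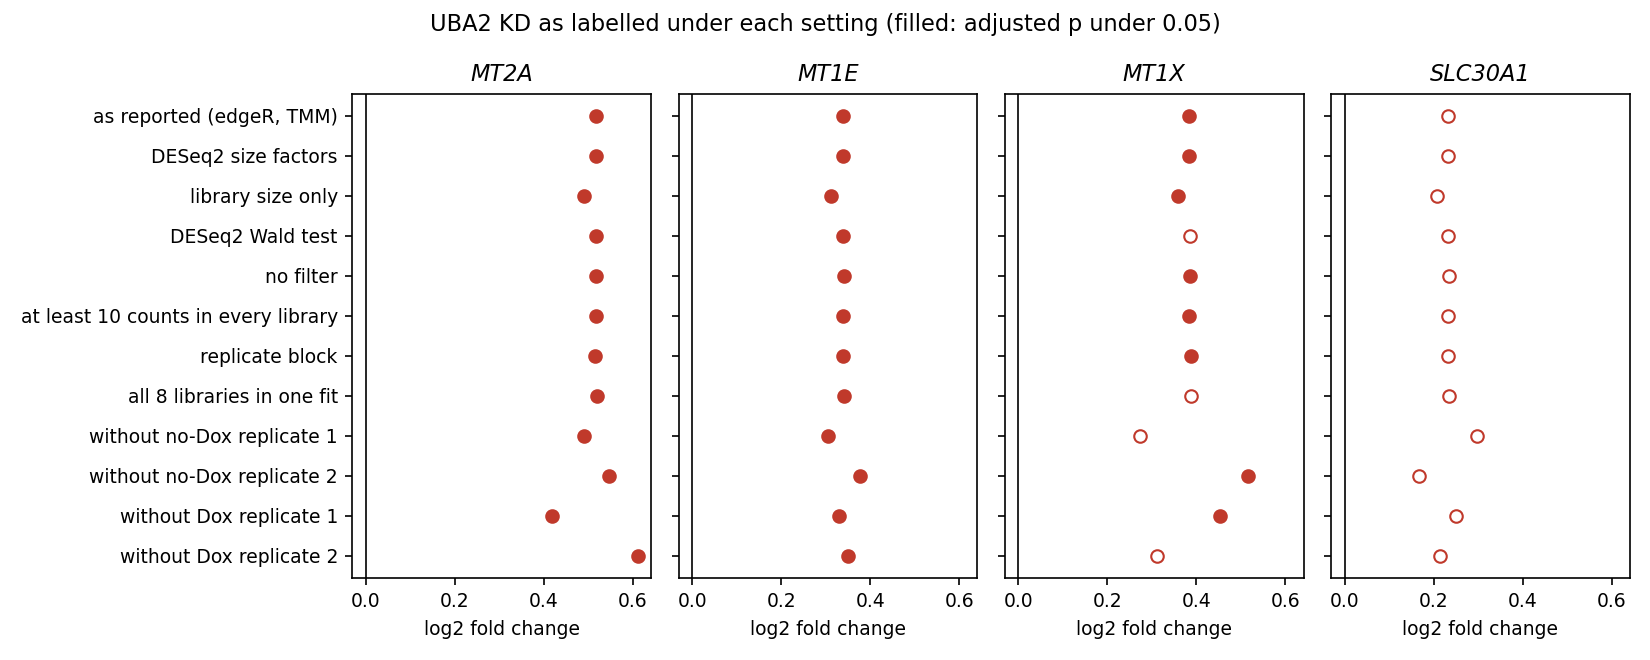
Log2 fold change on the x axis of MT2A, MT1E, MT1X and SLC30A1 in the libraries labelled UBA2 KD, as reported and under each of 11 other settings. Filled points have an adjusted p under 0.05: MT2A and MT1E are filled throughout, MT1X loses the call in 4 settings, and SLC30A1 is open throughout.

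In the TFAP2C experiment the question was how loss of TFAP2C changes expression. Of the 5 genes tested, 0 passed in either direction in edgeR, and 0 had an unadjusted p under 0.05 or passed in the Wald test of DESeq2. Over all 14991 genes tested, 0.740% passed, 0.260% upward and 0.480% downward, and 12.6% had an unadjusted p under 0.05.

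MT2A had 168 and 187 CPM with control siRNA and 186 and 188 CPM with TFAP2C siRNA. The groups overlapped, and the lowest library was control siRNA replicate 1. In 22.4% of all genes tested both TFAP2C siRNA libraries were above both controls, and this held for 0 of the 5 genes. The log2 fold change of MT2A was 0.075, with a 95% confidence interval from -0.083 to 0.23 (adjusted p = 0.707, edgeR). MT2A carries a match to the AP-2 motif in the sequence above, as do MT1X and 19.8% of all promoter windows. The interval of MT2A corresponds to folds of 0.944 to 1.18 and that of MT1X to folds of 0.899 to 1.25. Whether the motif bears on these values was not tested.

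MT1E had 74.6 and 72.1 CPM with control siRNA and 74.0 and 74.1 CPM with TFAP2C siRNA. All 4 libraries lay close together, and the groups overlapped. Its log2 fold change was 0.014 (95% confidence interval -0.14 to 0.17), and it was -0.015 when only library sizes were used for scaling. MT1X had 16.5 and 17.1 CPM with control siRNA and 16.3 and 19.2 CPM with TFAP2C siRNA. The TFAP2C siRNA libraries of MT1X lay on both sides of the controls, with a log2 fold change of 0.082 (95% confidence interval -0.15 to 0.32).

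SLC30A1 had 29.6 and 28.7 CPM with control siRNA and 26.3 and 32.0 CPM with TFAP2C siRNA. The control libraries lay between the TFAP2C siRNA libraries, and the log2 fold change was -0.0017 (95% confidence interval -0.23 to 0.22). MT1F had 3.49 and 3.69 CPM with control siRNA and 3.25 and 3.18 CPM with TFAP2C siRNA. Its groups did not overlap, as for 44.7% of all genes tested, and the log2 fold change was -0.16 (95% confidence interval -0.52 to 0.20, adjusted p = 0.734, edgeR). MT1M had 0 counts in all 4 libraries, where the limit of 3 counts that a count of 0 allows corresponds to 0.123 to 0.144 CPM.

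The sum of the 12 metallothionein rows in this table was 262 and 280 CPM with control siRNA and 279 and 285 CPM with TFAP2C siRNA. MT2A took between 63.9% and 66.8% of these counts and MT1E between 25.7% and 28.5%, and for both the groups overlapped. MT2A had from 2.25 to 2.597 counts for each count of MT1E in this experiment. The 2 tables use different gene models, so this ratio cannot be set against that of the UBA2 experiment.

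Whether a gene changed differently in the 2 experiments was tested with all 8 libraries in 1 fit over 13179 genes, taking the change under TFAP2C KD from that of the libraries labelled UBA2 KD. MT2A and MT1E passed, with differences of 0.45 (standard error 0.10, 95% confidence interval 0.24 to 0.67, adjusted p = 0.0265) and 0.34 (standard error 0.083, 95% confidence interval 0.16 to 0.52, adjusted p = 0.0461) on the log2 scale (edgeR). Over all genes 2.37% passed this test, 1.47% upward in the libraries labelled UBA2 KD relative to TFAP2C KD and 0.903% downward, and 14.1% had an unadjusted p under 0.05. MT1X, SLC30A1 and MT1F did not pass, with differences of 0.32 (95% confidence interval -0.020 to 0.65), 0.25 (-0.060 to 0.55) and 0.0059 (-0.56 to 0.57). Both calls were lost without either of the libraries without Dox, without replicate 1 of those with Dox, and without control siRNA replicate 2, with adjusted p-values from 0.103 to 0.230 (edgeR). That of MT1E was also lost without replicate 2 of those with Dox (adjusted p = 0.138) and without control siRNA replicate 1 (adjusted p = 0.233). With the replicate number as a block both were lost (adjusted p = 0.0672 for MT2A and 0.187 for MT1E, edgeR). MT1E was lost as well with library size only (adjusted p = 0.0586) and in the Wald test of DESeq2 (adjusted p = 0.0525). The experiments differ in how the cells were treated, in time and in the gene models of the tables, and these cannot be told apart in the differences.

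**Figure D4:**
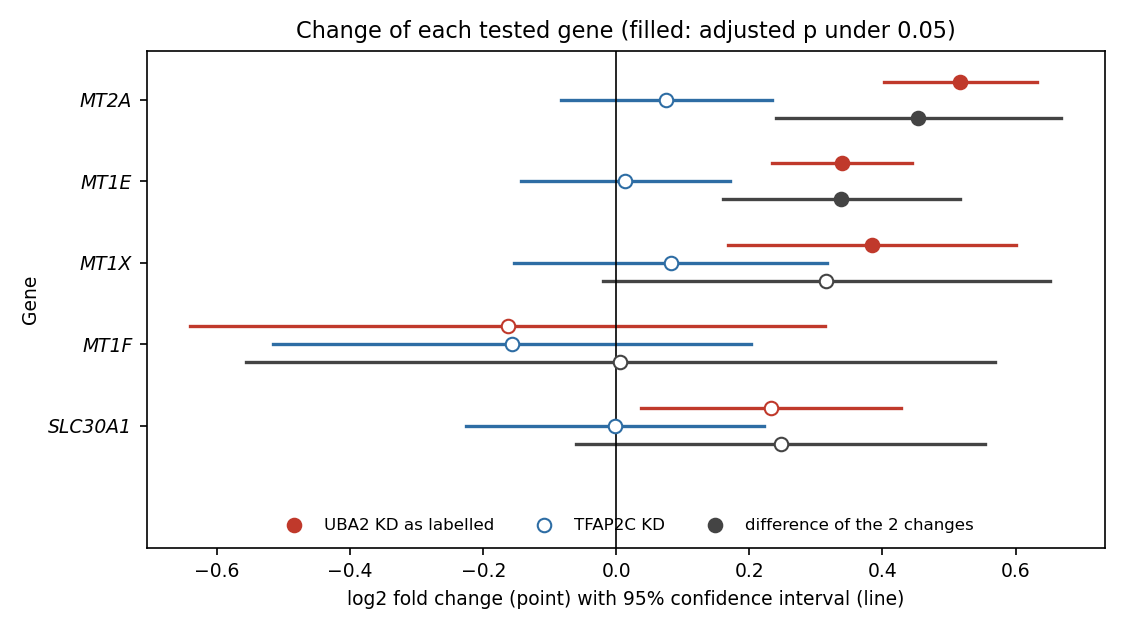
Log2 fold change on the x axis (points) with its 95% confidence interval (lines) for the 5 tested genes in the libraries labelled UBA2 KD (red), in TFAP2C KD (blue), and for the difference of the 2 changes (dark grey). Filled points have an adjusted p under 0.05, namely MT2A, MT1E and MT1X in red and MT2A and MT1E in dark grey, and each blue interval includes 0.

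Levels of different genes were compared per length, as CPM divided by the gene length in kb that each table gives (RPKM). Without Dox, MT2A stood at 372 ± 9.97 RPKM, MT1E at 185 ± 6.53, MT1X at 24.3 ± 2.88, SLC30A1 at 8.37 ± 0.536 and MT1F at 5.30 ± 0.0823 (SD, n = 2). Each neighbouring pair in this order differed by more than its spread. With control siRNA the order was the same, from MT2A at 194 ± 15.2 RPKM and MT1E at 69.9 ± 1.71 over MT1X at 9.71 ± 0.251 and SLC30A1 at 4.95 ± 0.109 to MT1F at 1.94 ± 0.0779 (SD, n = 2). The place of MT2A above MT1E rests on the length used. With the longest GENCODE transcript in place of the table's length, MT2A stood at 172 RPKM and MT1E at 211 RPKM without Dox, while with control siRNA MT2A remained above MT1E. MT1M and MT1G stood at 0.353 and 0.0675 RPKM without Dox.

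Other genes of metal handling were followed as lists written from general knowledge. Their counts in the UBA2 experiment stand beside 5.52% of all genes tested that rose and 4.47% that fell (edgeR). An unadjusted p under 0.05 was found for 22.7% of all genes tested. In the UBA2 experiment, 0 of the 6 other zinc exporters tested passed in edgeR or DESeq2, with 1 at an unadjusted p under 0.05, and MTF1 itself had a log2 fold change of 0.038 (adjusted p = 0.786, edgeR). Of the 11 zinc importers tested, 1 rose and 0 fell. This was SLC39A14, which takes up zinc, iron and manganese, with a log2 fold change of 0.28 (adjusted p = 0.000127, edgeR). Of 10 copper genes, 1 rose, the copper chaperone ATOX1, by 0.36 (adjusted p = 0.000793). Of 11 iron genes, FTH1, the heavy chain of ferritin, rose by 0.65 (adjusted p = 3.20e-13), and CYBRD1, a ferric reductase, fell by 0.29 (adjusted p = 0.0238, edgeR), though not in DESeq2. Reads of FTH1 can be shared with its processed pseudogenes, so its value is uncertain. The median log2 fold change was 0.34 over the 5 tested metallothioneins and SLC30A1, -0.0055 over the other zinc exporters, -0.041 over the zinc importers, -0.050 over the copper genes and -0.027 over the iron genes, beside -0.00042 over all genes tested.

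The list of heavy metal and oxidative stress genes moved both ways, with 4 of 11 higher and 3 lower in edgeR, 4 higher and 2 lower in DESeq2, and a median of 0.17. SLC7A11, the cystine transporter that feeds glutathione synthesis, rose by 0.95 (adjusted p = 1.33e-14, edgeR), and NQO1, a quinone reductase, rose by 0.41 (adjusted p = 3.25e-08). TXNRD1, thioredoxin reductase, rose by 0.36 (adjusted p = 5.63e-07) and SRXN1 by 0.28. The heat shock genes HSPA1B and DNAJB1 fell by 0.42 (adjusted p = 5.33e-07) and 0.20 (adjusted p = 0.00501). HSPA1A fell as well, but it is a near-identical copy of HSPA1B and the split of reads between them is uncertain. Of 5 glucocorticoid-responsive genes tested, 2 rose, KLF9 by 0.41 (adjusted p = 0.00526, edgeR) and TSC22D3 by 0.43 (adjusted p = 0.0266), both of which encode transcription regulators. In DESeq2, 0 of these 5 passed. Over all genes tested, 5.52% rose and 4.47% fell in edgeR.

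In the TFAP2C experiment 0 genes of these lists passed in edgeR or DESeq2. At an unadjusted p under 0.05 there were 1 of 6 other zinc exporters, 4 of 11 zinc importers, 1 of 10 copper genes, 4 of 10 iron genes, 2 of 11 stress genes and 2 of 4 glucocorticoid genes, beside 12.6% of all genes tested. In the test of the difference between the experiments, 5 genes of these lists passed upward in the libraries labelled UBA2 KD relative to TFAP2C KD and 1 passed downward. Tested were 6 other zinc exporters, 11 zinc importers, MTF1, 10 copper genes, 11 iron genes, 11 stress genes and 4 glucocorticoid genes. Over all genes tested, 1.47% passed upward and 0.903% downward. The upward differences were 1.17 for SLC7A11 (adjusted p = 0.00294), 0.49 for NQO1 (adjusted p = 0.00226), 0.50 for SLC39A14 (adjusted p = 0.00757), 0.43 for FTH1 (adjusted p = 0.00765) and 0.80 for TSC22D3 (adjusted p = 0.0432, edgeR). The downward difference was -0.49 for HSPA1B (adjusted p = 0.00765, edgeR). Under TFAP2C siRNA itself, log2 fold changes were -0.20 for SLC7A11, -0.067 for NQO1, -0.21 for SLC39A14 and -0.35 for TSC22D3. They were 0.24 for FTH1 and 0.083 for HSPA1B.

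**Figure D5:**
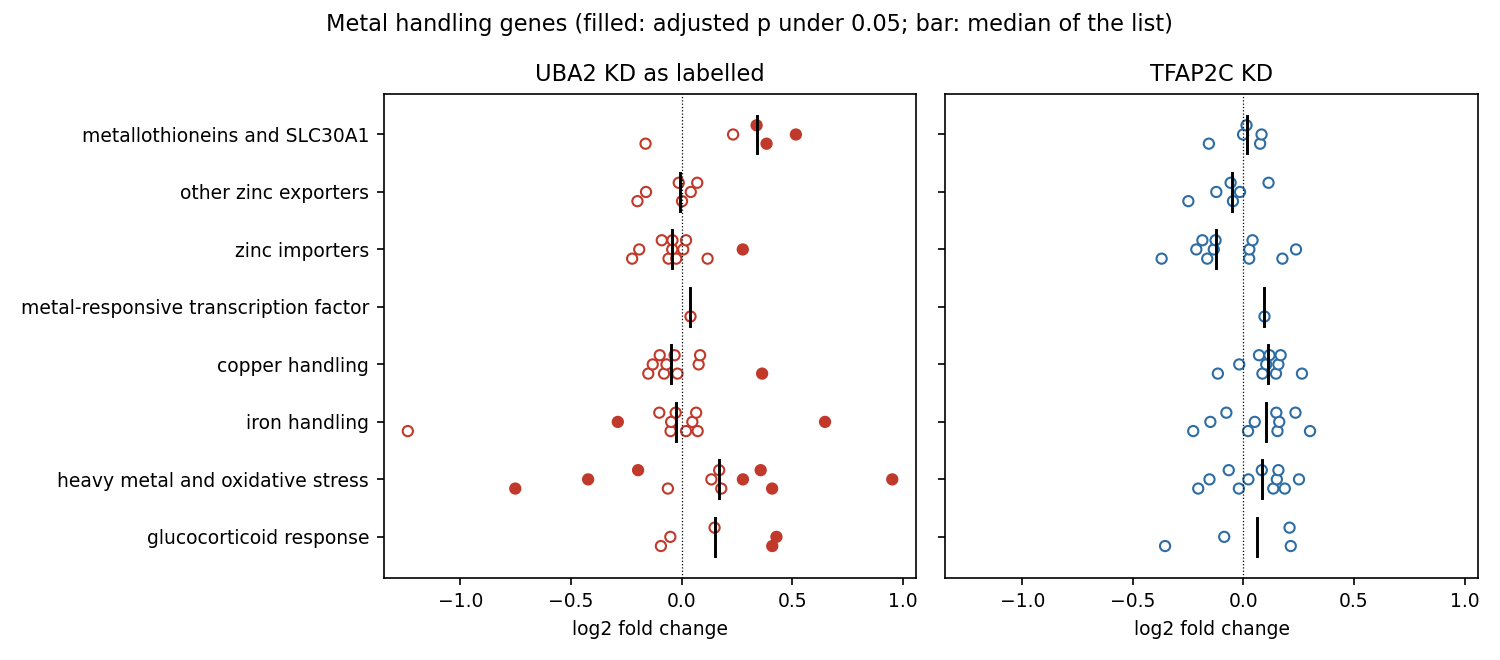
Log2 fold change on the x axis of each tested gene (points) in the lists of metal handling genes on the y axis, in the libraries labelled UBA2 KD (left) and in TFAP2C KD (right). Filled points have an adjusted p under 0.05 and black bars are list medians, which lie at 0.34 for the metallothioneins and SLC30A1 on the left and at 0.014 on the right.

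The genes whose levels over the 8 libraries were nearest to those of MT2A were FXYD5, ANKRD11 and VGF, with a root mean square difference of 0.035, 0.036 and 0.039 in log2 CPM relative to the mean of the own control. They were found among 10997 genes. MT1E and MT1X lay at 0.11 and 0.13 from MT2A by this measure and SLC30A1 at 0.19. Nearest to SLC30A1 were NARS, HOMER1 and VEZT, at 0.026, 0.026 and 0.029.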

How the data were processed

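The authors aligned single-end reads of 51 bases to hg19 with TopHat2, counted them on genes with HTSeq (version 0.9.1 in the submitters' processing notes), and deposited read counts per gene without normalization, beside a gene length in kb. The positions in the table of the TFAP2C experiment are those of GRCh38, and its gene models differ from those of the other table. The strand setting of the counting is not given in the sources used here.

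Groups were taken from sample titles. Knockdown and control libraries of the same table were compared in R 4.3.3 with edgeR 4.0.16, using filterByExpr, TMM scaling, the quasi-likelihood test (two-sided) and Benjamini-Hochberg adjustment over all genes tested at 0.05. Confidence intervals are at 95%. CPM use TMM-scaled library sizes. Alternatives were DESeq2 1.42.0, other scalings and filters, a replicate block, 1 fit of all libraries and each library left out. The code was tested on simulated data. The genes and lists were chosen with earlier results of these data known. All 7 genes are named, and others by smallest adjusted p among those that passed (at most 4 a list), with MTF1 and the 3 nearest genes by level. HSPA1A, DNAJB1, SRXN1 and the crossed pairing were chosen after the data were seen. Motifs were searched in RefSeq promoters of GRCh38.p14. The UBA2 and TFAP2C comparisons had biological coefficients of variation of 3.56% and 6.28%.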

Additional observations from a re-analysis of the deposited data

Results flagged for a closer look

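MT2A and MT1E changed differently in the 2 experiments, by a test of the difference itself in edgeR. Taking the change under TFAP2C KD from that of the libraries labelled UBA2 KD gave 0.45 for MT2A (adjusted p = 0.0265) and 0.34 for MT1E (adjusted p = 0.0461) on the log2 scale. Both Dox libraries were above both libraries without Dox for each gene, as for 25.5% of all genes tested, while the siRNA groups overlapped. In the TFAP2C experiment the groups did not overlap for 44.7% of all genes tested. The call held in 9 of 14 alternatives for MT2A and in 5 of 14 for MT1E, and both were lost with the replicate number as a block (adjusted p = 0.0672 and 0.187, edgeR). Adjusted p-values over the alternatives ranged from 0.000107 to 0.214 for MT2A and from 0.00665 to 0.233 for MT1E.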

How the results depend on the processing

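In the libraries labelled UBA2 KD, the count of 3 of the 7 genes called was 2 or 3 under every alternative, and the summed metallothionein rows kept a log2 change from 0.37 to 0.47. The number of all genes called there fell from 1336 to 673 in the Wald test of DESeq2, to 696 with all 8 libraries in the same fit, and to 833 to 1271 with each library left out. In TFAP2C KD, 111 genes became 398 without a filter, 271 with all 8 libraries in the same fit, and 49 to 2825 with each library left out, the highest without TFAP2C KD replicate 2 and 537 without replicate 1. None of the 7 genes passed there under any alternative, and MT1M, with 0 counts, could not be tested there.

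The replicate numbers are shared by the groups in the labels, but nothing else pairs the libraries, and deviations of same-numbered libraries correlated at 0.074 in the UBA2 and -0.14 in the TFAP2C experiment. With the replicate number as a block, 1308 genes were called in the former and 172 in the latter, and 467 in the latter with the pairing crossed, an alternative chosen after seeing the data. The block left 3 and 0 of the 7 genes called. It left 0 of the 2 called for the difference between the knockdowns, where MT2A had an adjusted p = 0.0672 and MT1E an adjusted p = 0.187 (edgeR).

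For that difference, 1 of the 7 genes was called with library size only, beside 298 of all 13179 genes tested. In the Wald test of DESeq2 it was 1 of the 7, beside 263 of all genes tested. The difference of SLC30A1 was 0.41 without TFAP2C KD replicate 2 and 0.090 without TFAP2C KD replicate 1. Values near 0 changed sign. In TFAP2C KD, SLC30A1 was 0.00041 with DESeq2 size factors, 0.0011 in the Wald test and 0.0030 without a filter, and MT1E was -0.015 with library size only. With each library left out, MT2A ranged from -0.0029 to 0.15, MT1E from -0.020 to 0.039, MT1X from -0.032 to 0.19 and SLC30A1 from -0.15 to 0.13. The difference of MT1F was -0.00022 with DESeq2 size factors, -0.0047 with library size only, -0.0038 without a filter, -0.0011 with at least 10 counts in every library, and -0.063 to 0.068 with each library left out. Per length, MT2A over MT1E fell from 2.02 to 0.813 without Dox and from 2.78 to 1.998 with control siRNA when the longest transcript was used. MT1M and MT1G could be tested only without a filter, and MT1M could not be tested in TFAP2C KD, where it had 0 counts. The cause of these shifts was not tested.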
